A study of Mus musculus with 9 samples.

Results

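Leptin and interleukin-6 type cytokines signal through related receptors, and 10 genes of this pathway were followed in the paraventricular nucleus of the hypothalamus (PVN): the leptin receptor Lepr, the interleukin-6 receptor chains Il6ra and Il6st (gp130), the kinase Jak2, the transcription factor Stat3 and the inhibitors Socs1, Socs2, Socs3, Ptpn1 and Ptpn2. They were taken by symbol as named members of the pathway, 10 of the 27179 genes listed in the count table, and all 10 passed the filter on low counts that left 17344 genes for testing. PVN tissue punches came from 9 male wild-type C57BL/6 mice (C57BL/6J in the methods) in 3 groups of 3, whose age the labels give as postnatal day 35 and which were then kept on their diets for 12 weeks. Control mice ate chow with 16% of calories from fat, HFD mice ate a high fat diet with 60% of calories from fat, and HFD+Mino mice ate the same high fat diet and, over the final 6 weeks, drank water dosed with 40 mg/kg/day of minocycline, a tetracycline antibiotic used to dampen microglia. No group received minocycline on chow, so minocycline was measured only under high fat diet. Each library came from bulk tissue, in which fewer cells of a type and less RNA per cell cannot be told apart.

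Leptin is secreted by fat cells and reports fat stores to the hypothalamus, where the long form of its receptor lowers food intake and raises energy expenditure. Neither the leptin receptor nor gp130 has kinase activity of its own. Ligand binding activates JAK kinases bound to their tails, which phosphorylate STAT3, and STAT3 then enters the nucleus and switches on target genes that include its own inhibitor Socs3. SOCS proteins and the tyrosine phosphatases PTP1B (Ptpn1) and TCPTP (Ptpn2) shut the signal off, and raised levels of Socs3 and Ptpn1 in the hypothalamus are a textbook feature of leptin resistance in obesity. Il6ra is the ligand-binding chain for interleukin-6 and Il6st is the signal-transducing chain that interleukin-6, leukemia inhibitory factor, ciliary neurotrophic factor and cardiotrophin share.

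The promoters of 3 of these genes are shown because Socs3 is the classical target of STAT3, while Stat3 and Il6st were the members that stood highest in all HFD mice. Each is the strand of the gene, 5′ to 3′, from 250 bases before to 50 bases after an annotated start in RefSeq (GRCm38.p6). For Socs3 that start lies inside the gene span given below, so the annotated gene begins upstream of it. Capitals mark matches to the STAT motif TTCNNNGAA, which reads the same on both strands. The Socs3 window is chr11:117969317-117969616 on the minus strand, the Stat3 window chr11:100939491-100939790 on the minus strand and the Il6st window chr13:112463820-112464119 on the plus strand.
Socs3: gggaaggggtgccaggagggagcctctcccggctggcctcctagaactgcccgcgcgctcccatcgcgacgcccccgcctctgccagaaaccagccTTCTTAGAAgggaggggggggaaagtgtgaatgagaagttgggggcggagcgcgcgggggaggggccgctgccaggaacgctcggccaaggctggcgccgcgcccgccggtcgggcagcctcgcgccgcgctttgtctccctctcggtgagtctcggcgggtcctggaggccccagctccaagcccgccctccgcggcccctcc
Stat3: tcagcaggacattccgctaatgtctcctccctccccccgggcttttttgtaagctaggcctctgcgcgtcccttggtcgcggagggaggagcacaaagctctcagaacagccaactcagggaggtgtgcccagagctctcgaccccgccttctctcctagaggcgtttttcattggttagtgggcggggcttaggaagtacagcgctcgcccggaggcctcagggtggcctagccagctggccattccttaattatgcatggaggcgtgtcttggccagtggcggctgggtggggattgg
Il6st: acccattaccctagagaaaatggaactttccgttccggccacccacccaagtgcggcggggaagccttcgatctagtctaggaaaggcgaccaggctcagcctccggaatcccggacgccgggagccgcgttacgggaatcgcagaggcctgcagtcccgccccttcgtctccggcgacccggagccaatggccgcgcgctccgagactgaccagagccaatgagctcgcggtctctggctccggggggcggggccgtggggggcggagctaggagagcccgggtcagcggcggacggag
The Socs3 window held 1 match, starting at base 97 of the window, and those of Stat3 and Il6st held none. The windows of Lepr, Il6ra, Jak2, Socs1 and Ptpn1 held none either. Among all promoter windows of this length, 8.30% held a match (2726 of 32851). A match is a description of the letters and no match says nothing about binding of a STAT factor. Windows of Socs2 and Ptpn2 were not analysed here.

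The libraries held between 17728590 (HFD replicate 1) and 42326213 (Control replicate 1) reads assigned to genes. The library labelled Control replicate 1 nearly lacked the genes that define the PVN: its vasopressin gene Avp stood at 0.149 and its oxytocin gene Oxt at 0.770 CPM (counts per 1000000 counts of the library), and the summed level of 5 PVN markers was 27.8 CPM against 931 to 2560 in the other Control libraries, 2478 to 3725 in HFD and 3103 to 37730 in HFD+Mino. That library also held 29220 CPM of 6 oligodendrocyte genes, against 6886 at most elsewhere. HFD+Mino replicates 1 and 2 stood apart in the other direction, with Avp at 28050 and 22180 CPM against 1218 in replicate 3. The summed level of 8 microglial genes ran from 285 to 459 CPM in Control, 362 to 388 in HFD and 420 to 497 in HFD+Mino, and 6 astrocyte genes from 4175 to 6027, 4364 to 5075 and 3552 to 4355. The sum of 6 ependymal cell and tanycyte genes separated the groups, at 17.2 to 133 CPM in Control, 140 to 250 in HFD and 287 to 622 in HFD+Mino. Taken singly, 3 of the 6 did not overlap in HFD against Control, 3 in HFD+Mino against HFD and 3 in HFD+Mino against Control. The shares of all tested genes were 35.7%, 46.7% and 19.1%. Rax and Col23a1 overlapped in every comparison. Control replicate 2 held 3396 CPM of 5 markers of neighbouring nuclei, against 479 at most elsewhere. Of 53 marker genes of the tissue's cell types, 52 were tested and 1 passed the thresholds, the pericyte gene Pdgfrb, lower in HFD+Mino than in HFD. None of the 53 markers was at 0 in every library (Aqp1 of the choroid plexus was at 0 in 5), and the part of these differences in the results on the 10 genes was not tested. The main results are also given with Control replicate 1 or HFD+Mino replicate 3 left out.

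Across the comparisons, Il6st was the single member that passed both thresholds, a false discovery rate (FDR) under 0.01 over all tested genes in edgeR's quasi-likelihood test and a change of at least 1.5-fold, and it fell 3.56-fold from HFD to HFD+Mino. That was 1 of 10 members in a comparison in which 4.15% of all tested genes passed. None of the 10 passed in HFD against Control, where 1.74% of all genes did, or in the 3-way test of all groups, where 2.17% did. In HFD+Mino against Control none of the 10 passed and 0.0% of all genes did. At an unadjusted p under 0.05 there were 4 members in HFD against Control, 4 in HFD+Mino against HFD, 2 in HFD+Mino against Control and 5 in the 3-way test, beside 20.5%, 41.4%, 21.3% and 39.0% of all tested genes. At an FDR under 0.05 with the same fold, the 3-way test gave 3 members and HFD+Mino against HFD gave the same 3 (Il6st and Stat3 lower, Socs2 higher), beside 17.7% and 27.4% of all genes. HFD against Control and HFD+Mino against HFD share the HFD libraries, so their values below are not independent of each other.

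**Figure D1:**
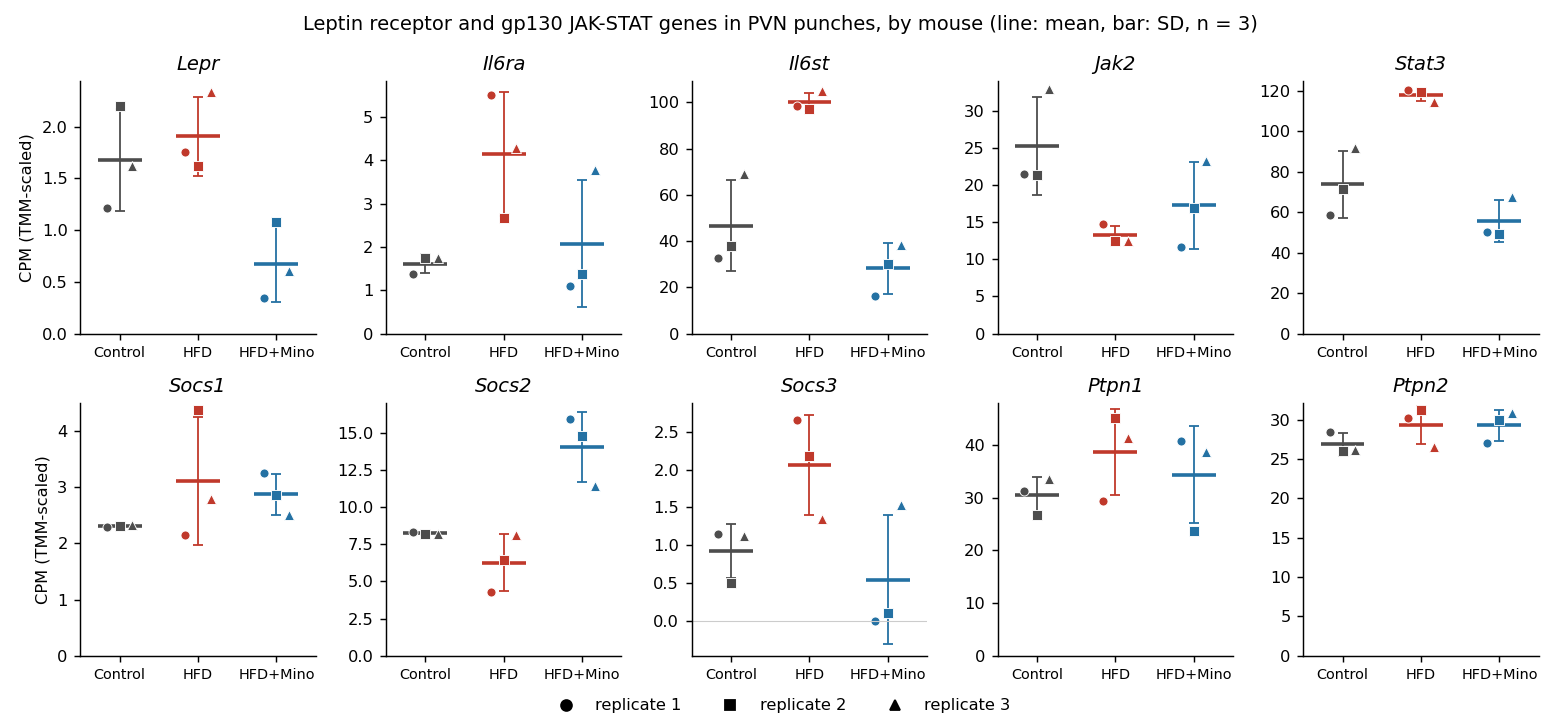
Each panel plots 1 gene in CPM scaled by TMM, a normalization for library composition, with 1 point per mouse, the group mean as a line and the SD as a bar (n = 3). Il6st and Stat3 lie above all 6 other mice in HFD, Socs2 lies highest in HFD+Mino, and Ptpn2 lies between 26.0 and 31.2 CPM in every mouse.

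Il6st (Entrez 16195, chr13:112464070-112506860, plus strand, GRCm38) encodes gp130. Its level was 32.8, 38.0 and 69.1 CPM in the Control mice, 98.5, 97.2 and 105 in HFD and 16.3, 30.0 and 38.2 in HFD+Mino. The 3 HFD mice lay close together and above the other 6, while Control and HFD+Mino overlapped. HFD+Mino was lower than HFD by 1.83 on the log2 scale (SE 0.35, 95% interval -2.60 to -1.06, FDR 0.00859), a change of 3.56-fold. None of the 6 astrocyte genes passed in this comparison. Of the 6, 5 (all but Aldoc) were lower in every HFD+Mino mouse than in every HFD mouse, as Il6st and Stat3 were, with a list median of -0.89. Of 6 neuronal genes, 3 were likewise lower in every HFD+Mino mouse, with a list median of -0.78. Of all tested genes, 46.7% did not overlap between these groups. For Aqp4, the water channel of astrocyte endfeet, the HFD+Mino mice stood at 53.4, 83.1 and 62.0 CPM and the HFD mice at 150, 164 and 168. The part of astrocyte or neuronal transcripts in the Il6st and Stat3 differences was not tested. The Il6st call was kept without Control replicate 1 (-1.83, FDR 0.00662) and when HFD+Mino replicate 3 was left out (-2.11, FDR 0.00205), but leaving out Control replicate 2 (the library with the high markers of neighbouring nuclei), any HFD replicate, or HFD+Mino replicate 1 or 2 took the FDR to between 0.0177 and 0.0458, with the difference between -1.55 and -1.88. HFD was higher than Control by 1.10 (SE 0.34, 95% interval 0.35 to 1.86), 2.15-fold, which did not pass (FDR 0.0917, or 0.90 with an FDR of 0.297 without Control replicate 1). In that comparison the replicate numbers of Control and HFD+Mino were also taken as a block, a pairing chosen from these same counts. That fit gave 1.17 (FDR 0.00254), with Il6st the 1 member past the thresholds, and called 6.22% of all genes. HFD+Mino and Control did not differ beyond their spread (-0.73, 95% interval -1.48 to 0.02, FDR 0.246).

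Il6ra (Entrez 16194, chr3:89869324-89913196, minus strand), which lets a cell bind interleukin-6 directly, was far lower, with 32 to 172 reads a library. Its level was 1.37, 1.75 and 1.74 CPM in Control, 5.52, 2.67 and 4.28 in HFD and 1.10, 1.37 and 3.77 in HFD+Mino. All 3 HFD mice lay above all Control mice, and HFD+Mino replicate 3 lay among the HFD mice. HFD exceeded Control by 1.36 on the log2 scale (SE 0.52), which did not pass (FDR 0.168). HFD+Mino was 0.99 below HFD in the fit (interval -2.12 to 0.14, FDR 0.170), and the estimate was -1.74 without HFD+Mino replicate 3 (FDR 0.0153). Il6ra shares 242 exonic bases with a gene model on the opposite strand, Gm42809, and the strand setting of the counts is not given in the sources used here.

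Lepr (Entrez 16847, chr4:101717137-101815352, plus strand) was also a rare transcript, counted 10 to 94 times a library. It stood at 1.22, 2.20 and 1.62 CPM in Control, 1.76, 1.62 and 2.34 in HFD and 0.342, 1.08 and 0.601 in HFD+Mino. The 3 HFD+Mino mice lay below all 6 others, and Control and HFD overlapped. HFD+Mino was 2.83-fold below HFD (SE 0.54 on the log2 scale, 95% interval -2.70 to -0.31) at an FDR of 0.0600, and 2.49-fold below Control (interval -2.51 to -0.13, FDR 0.200), so neither difference passed. HFD and Control differed by 0.19 (interval -0.96 to 1.33, FDR 0.875), which leaves room for a change of over 1.5-fold in either direction. The table counts genes, so the long signalling form of the receptor was not separated from the short forms.

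JAK2 is a kinase bound to both receptors. Jak2 (Entrez 16452, chr19:29251803-29313095, plus strand) stood at 21.5, 21.4 and 33.0 CPM in Control, 14.8, 12.5 and 12.5 in HFD and 11.6, 16.9 and 23.3 in HFD+Mino. All HFD mice lay below all Control mice and HFD+Mino overlapped both groups. HFD was 0.93 below Control on the log2 scale (SE 0.30, 95% interval -1.59 to -0.28), 1.91-fold, at an FDR of 0.101 (-1.04 and 0.141 without Control replicate 1). HFD+Mino was 0.38 above HFD (interval -0.27 to 1.04, FDR 0.355) and 0.55 below Control (interval -1.20 to 0.10, FDR 0.304).

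Stat3 (Entrez 20848, chr11:100886806-100939594, minus strand), the transcription factor that carries both signals to the nucleus, stood at 58.4, 71.3 and 91.5 CPM in Control, 120, 119 and 115 in HFD and 50.4, 49.2 and 67.6 in HFD+Mino. The HFD mice again lay close together above all 6 others. HFD+Mino was below HFD by 1.08 on the log2 scale (SE 0.23, 95% interval -1.58 to -0.58), 2.12-fold, at an FDR of 0.0113, just outside the threshold. It passed in DESeq2 (FDR 0.00023), which called 23.0% of all genes, and without Control replicate 1 (0.00985, 5.27%). It also passed with HFD+Mino replicate 3 left out (0.00245, 21.4%) and with the replicate block in Control and HFD+Mino (-1.10, FDR 0.000552, 25.6%). The main fit called 4.15%. With 1 sample left out the FDR of Stat3 reached 0.0535, and in the other alternatives it reached 0.0430. HFD was above Control by 0.68 (SE 0.23, interval 0.18 to 1.17, FDR 0.114, or 0.53 with an FDR of 0.397 without Control replicate 1), and HFD+Mino below Control by 0.40 (interval -0.90 to 0.09, FDR 0.318). Stat3 shares 72 exonic bases with Stat5a on the opposite strand. These are transcript levels, and the phosphorylation that activates JAK2 and STAT3 was not measured.

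**Figure D2:**
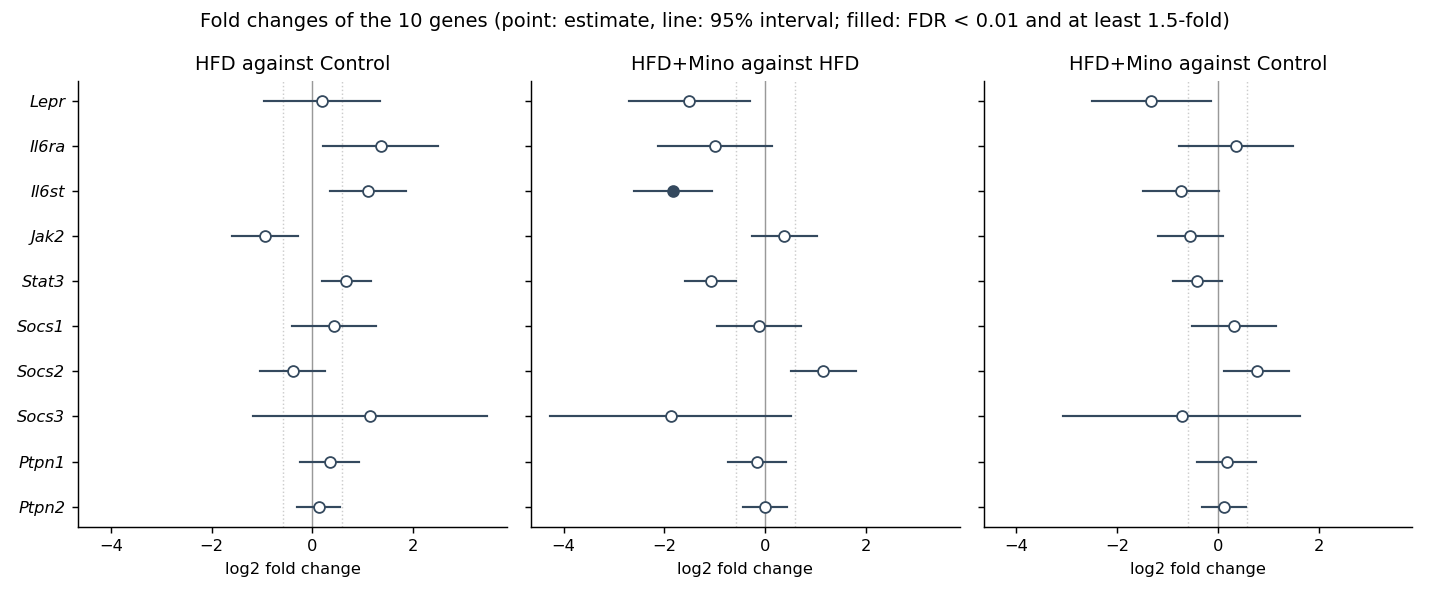
Points give the log2 fold change of each gene in 3 comparisons and lines its 95% interval, dotted lines mark 1.5-fold, and filled points passed an FDR of 0.01 with at least 1.5-fold. Only Il6st in HFD+Mino against HFD is filled, and the intervals of Socs3 are the widest in each panel.

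The 5 inhibitors differed from each other. Socs2 (Entrez 216233, chr10:95383903-95417321, minus strand), a SOCS protein best known as a brake on growth hormone signalling through STAT5, stood at 8.32, 8.16 and 8.21 CPM in Control, 4.27, 6.41 and 8.12 in HFD and 15.9, 14.8 and 11.4 in HFD+Mino. The 3 groups did not overlap, with HFD lowest and HFD+Mino highest, although the highest HFD mouse (8.12) came close to the lowest Control mouse (8.16). HFD+Mino was above HFD by 1.16 on the log2 scale (SE 0.30, 95% interval 0.51 to 1.81), 2.23-fold, at an FDR of 0.0186. It passed in DESeq2 (FDR 0.000917), which called 23.0% of all genes, and without HFD+Mino replicate 3 (1.28, FDR 0.00840), where 21.4% passed. It also passed with the replicate block in Control and HFD+Mino (1.15, FDR 0.00973). Without Control replicate 1 the FDR was 0.0191. With 1 sample left out the FDR of Socs2 reached 0.0738, and in the other alternatives it reached 0.0318. HFD+Mino was 0.77 above Control (interval 0.13 to 1.41, FDR 0.180) and HFD 0.39 below Control (interval -1.03 to 0.25, FDR 0.485). With that block, 3 members (Il6st, Stat3 and Socs2) passed in HFD+Mino against HFD, in a fit that called 25.6% of all genes.

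Socs3 (Entrez 12702, chr11:117966079-117970336, minus strand) is the gene whose promoter window printed above holds the STAT motif. It was counted 46, 18 and 38 times in Control, 53, 75 and 54 times in HFD and 0, 3 and 56 times in HFD+Mino. In CPM these were 1.14, 0.508 and 1.12, then 2.66, 2.18 and 1.34, then 0, 0.111 and 1.53. The HFD mice lay above all Control mice, while the HFD+Mino mice split, 2 at or near 0 and 1 within the HFD range. Its 1.15 difference between HFD and Control (SE 1.06, 95% interval -1.18 to 3.48, FDR 0.576) and its -1.87 difference between HFD+Mino and HFD (SE 1.09, interval -4.26 to 0.52, FDR 0.219) were within the spread. Without HFD+Mino replicate 3 the latter passed (FDR 0.00404), so that 1 library decides the call; the fold then rests on counts of 0 and 3 and is not given. HFD+Mino replicates 1 and 2, with 0 and 3 Socs3 reads, were the libraries with the high vasopressin levels.

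Socs1 (Entrez 12703, chr16:10783808-10785536, minus strand), which blocks JAK kinases directly, stood at 2.29, 2.32 and 2.33 CPM in Control, 2.16, 4.38 and 2.79 in HFD and 3.25, 2.86 and 2.51 in HFD+Mino. Every HFD+Mino mouse lay above every Control mouse, by a narrow margin (0.32 on the log2 scale, 95% interval -0.52 to 1.15, FDR 0.644), and HFD spanned both. The phosphatase genes separated no groups. Ptpn1 (Entrez 19246, chr2:167930750-167979385, plus strand), encoding the PTP1B that dephosphorylates JAK2, stood at 31.3, 26.7 and 33.6 CPM in Control, 29.5, 45.2 and 41.3 in HFD and 40.8, 23.8 and 38.7 in HFD+Mino, and the groups overlapped. HFD was 0.34 above Control (interval -0.24 to 0.92, FDR 0.497) and HFD+Mino 0.17 below HFD (interval -0.75 to 0.41, FDR 0.665). Ptpn2 (Entrez 19255), encoding the TCPTP that dephosphorylates STAT3, had group means of 26.9 ± 1.4, 29.3 ± 2.4 and 29.3 ± 2.0 CPM (SD, n = 3) in Control, HFD and HFD+Mino. Its intervals, -0.31 to 0.56 in HFD against Control and -0.43 to 0.43 in HFD+Mino against HFD, left no room for a change of 1.5-fold.

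Counted by separation alone, 6 of the 10 genes did not overlap between HFD and Control, beside 35.7% of all tested genes: Il6ra, Il6st, Stat3 and Socs3 were higher in all HFD mice, Jak2 and Socs2 lower. Between HFD+Mino and HFD 4 did not overlap, beside 46.7%: Lepr, Il6st and Stat3 were lower and Socs2 higher. Between HFD+Mino and Control 3 did not overlap, beside 19.1%, with Socs1 and Socs2 higher and Lepr lower. HFD lay beyond all 6 other mice for 3 genes (Il6st and Stat3 above, Socs2 below), beside 23.0% of all genes. The median log2 difference of the 10 genes was 0.39 in HFD against Control, -0.58 in HFD+Mino against HFD and -0.14 in HFD+Mino against Control, where the median of all tested genes was 0.00, 0.01 and -0.02.

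Set against exon length, the levels spanned a wide range. In Control mice, in CPM per kilobase of exon, Ptpn2 (8.60 ± 0.45, SD, n = 3) and Stat3 (7.74 ± 1.75) stood highest and overlapped. Ptpn1 (5.52 ± 0.63), Jak2 (5.03 ± 1.33) and Il6st (4.20 ± 1.77) followed, each overlapping the next. Socs2 (0.864 ± 0.009) and Socs1 (0.794 ± 0.007) did not overlap each other or any of the genes above. Socs3 (0.319 ± 0.124), Lepr (0.238 ± 0.070) and Il6ra (0.187 ± 0.025) stood lowest, each overlapping the next. In HFD mice Stat3 (12.4 ± 0.3) stood above Ptpn2 (9.38 ± 0.78) and Il6st (9.03 ± 0.37), which overlapped, and Jak2 (2.64 ± 0.26) lay below Ptpn1 (6.99 ± 1.48) without overlap. In HFD+Mino mice Ptpn2 (9.36 ± 0.63) led Ptpn1 (6.22 ± 1.68) and Stat3 (5.85 ± 1.08), and Lepr (0.0956 ± 0.0529) had the lowest mean, although Socs3 was lower than Lepr in 2 of the 3 mice. By group mean, both receptor chains that bind a ligand, Lepr and Il6ra, were more than 10-fold below gp130 per length in all 3 groups, although Il6ra (0.436) and Il6st (3.44) were closer than that in HFD+Mino replicate 3.

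**Figure D3:**
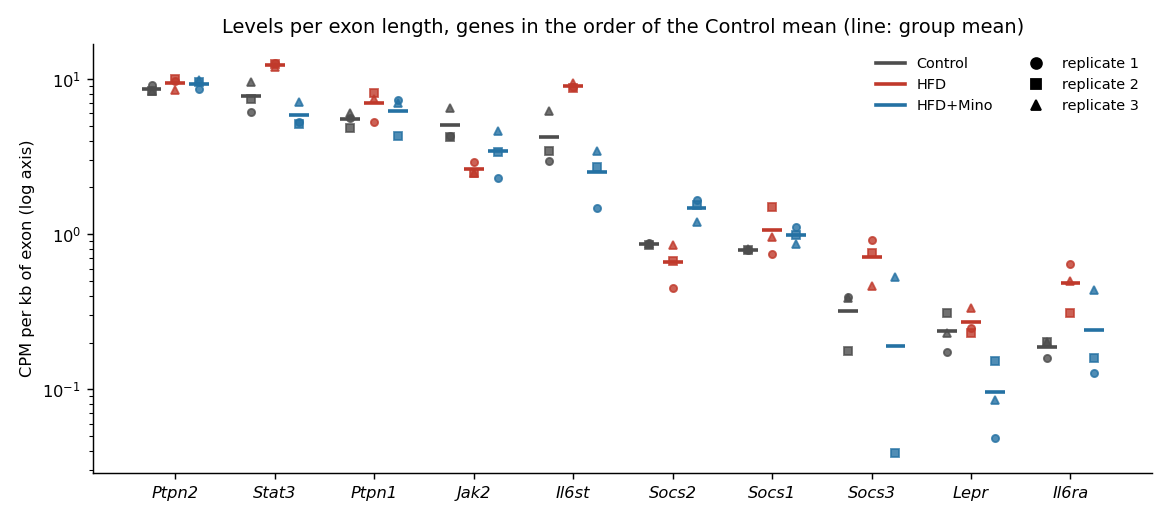
Points give each mouse's level in CPM per kilobase of exon on a log axis, with symbols for replicates, colours for groups and lines for group means; the HFD+Mino mouse with no Socs3 read is not drawn. Genes run in the order of their Control mean, from Ptpn2 at 8.60 to Il6ra at 0.187.

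Exon length moved with the fold changes of all genes. With all genes split into 5 classes of equal size by exon length, the median log2 difference between HFD+Mino and HFD ran from 0.86 in the shortest class to -0.57 in the longest, and that between HFD and Control from -0.26 to 0.39. Il6st (11099 exonic bases), Socs2 (9531), Stat3 (9527) and Il6ra (8642) belonged to the longest class. With each library's trend on length removed, HFD+Mino against HFD stood at -1.41 for Il6st (FDR 0.0217, no longer past the threshold), at -0.70 for Stat3 (FDR 0.0430) and at 1.52 for Socs2 (FDR 0.0128), and the HFD against Control differences of Il6st and Stat3 were 0.75 and 0.37. These lengths are the union of all annotated exons of a gene, which can exceed the length of any 1 transcript. By that measure Socs2 differed in the direction opposite to the median of its length class. Il6st and Stat3 differed in the same direction as that median but by more. Lengths of the transcripts present in the tissue were not measured.

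**Figure D4:**
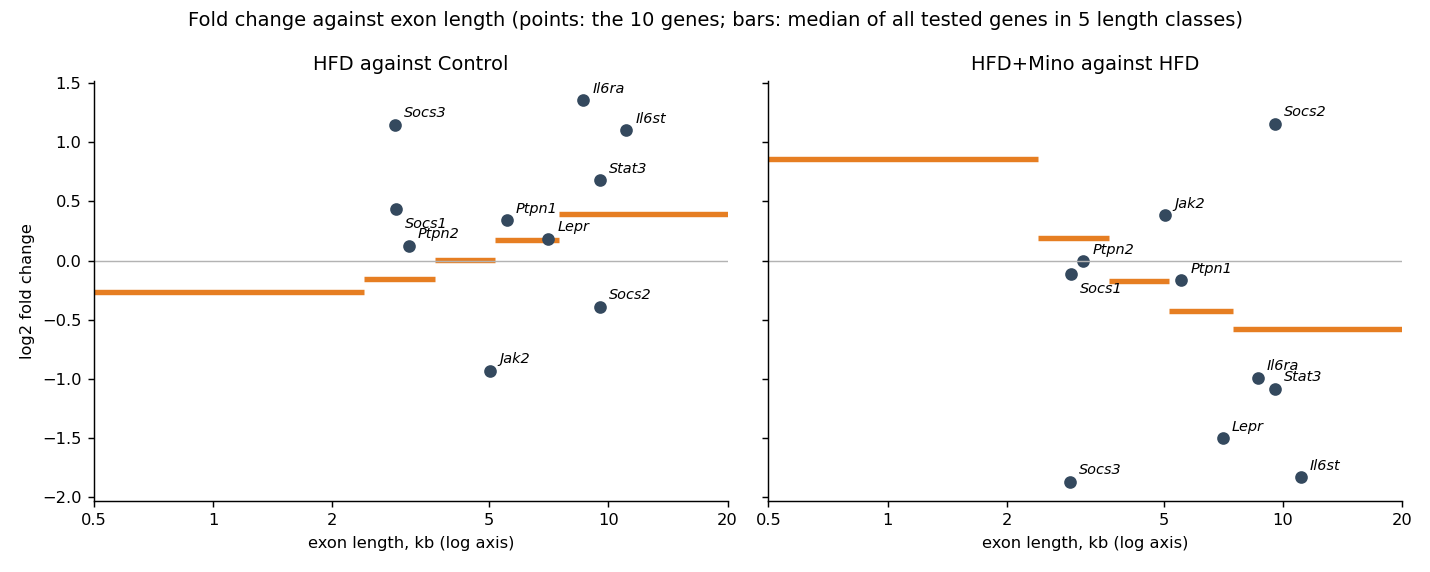
The log2 fold change of the 10 genes (points) is plotted against exon length in kilobases on a log axis, with bars for the median of all tested genes in each of 5 length classes (drawn from 0.5 to 20 kb). In HFD+Mino against HFD the bars step from 0.86 down to -0.57, with Socs2 at 1.16 above them and Il6st at -1.83 below.

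The wider pathway was followed in 64 further genes, of which 58 were tested. In HFD against Control 1 of 58 passed and it fell, beside 1.74% of all genes. In HFD+Mino against HFD 1 passed and it rose, beside 4.15%. None passed in HFD+Mino against Control or in the 3-way test, beside 0.0% and 2.17%. In these 2 tests 9 and 18 genes had an unadjusted p under 0.05, beside 21.3% and 39.0% of all genes. DESeq2 put 0 and 10 past the same thresholds in them, beside 1.59% and 18.7%. With the replicate block in Control and HFD+Mino, 6 of 58 passed in HFD against Control and 12 in HFD+Mino against HFD, beside 6.22% and 25.6% of all genes. Cntfr, the receptor chain that binds ciliary neurotrophic factor and recruits gp130, stood at 43.1, 31.8 and 27.2 CPM in Control, 4.92, 6.84 and 11.6 in HFD and 26.5, 17.4 and 31.0 in HFD+Mino. HFD fell below Control by 2.12 on the log2 scale (SE 0.36, 95% interval -2.91 to -1.33, FDR 0.00667), 4.35-fold, a call that was lost without Control replicate 1 (-1.92, FDR 0.0200) and 5 other libraries left out in turn, with an FDR of 0.0488 at most. HFD+Mino exceeded HFD by 1.67 (FDR 0.0116). Ctf1, encoding the ligand cardiotrophin-1, which signals through gp130, stood at 3.53, 4.29 and 3.12 CPM in Control, 1.00, 1.02 and 0.622 in HFD and 8.83, 3.05 and 4.86 in HFD+Mino. HFD+Mino rose above HFD by 2.67 (SE 0.47, interval 1.64 to 3.70, FDR 0.00668), 6.36-fold, a call lost without Control replicate 2, any HFD replicate or HFD+Mino replicate 1, with an FDR of 0.0458 at most. Both calls were also lost with the length trend removed (Cntfr -1.91, FDR 0.0131, and Ctf1 1.80, FDR 0.0242). In the HFD mice Cntfr and Ctf1 lay below all 6 other mice, and gp130 itself lay above them. Among the other ligands and receptor chains, Il11ra1 and Leprot also lay below all 6. Lif (leukemia inhibitory factor) and its receptor chain Lifr lay above all 6, as gp130 did. Of the 58 genes, 12 lay above all 6 in HFD and 6 below, beside 23.0% of all tested genes beyond all 6.

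**Figure D5:**
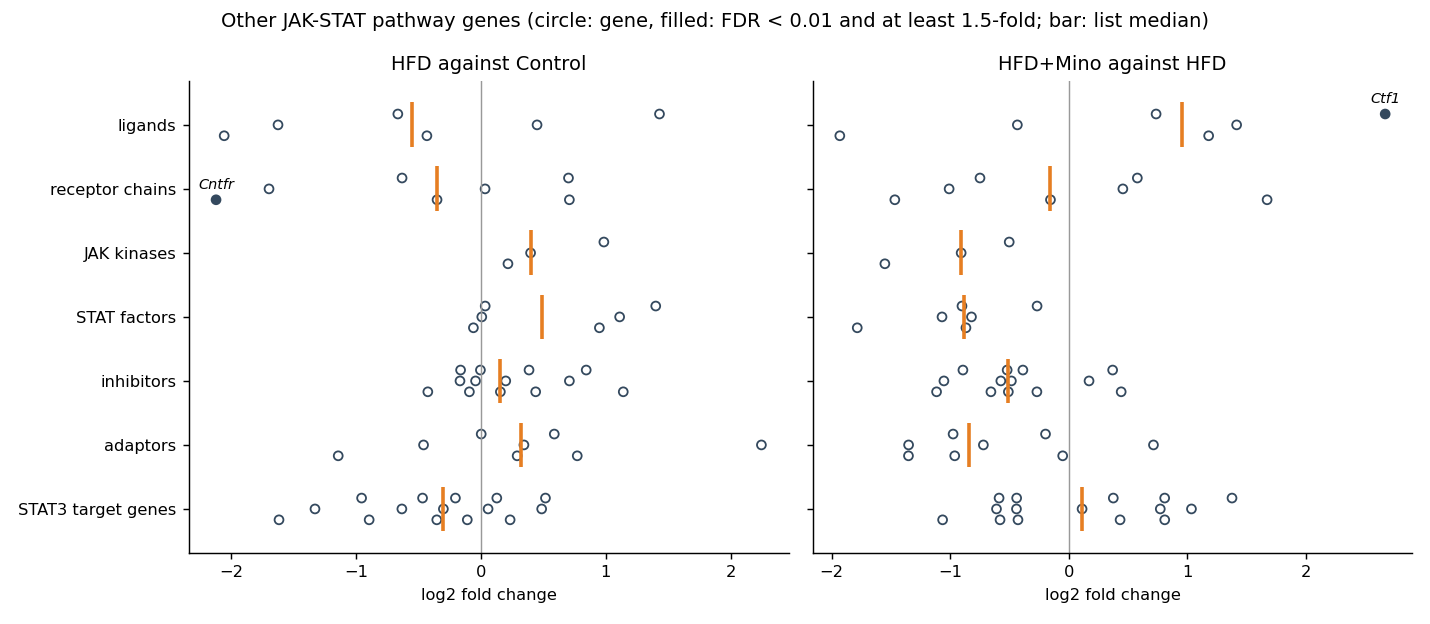
Circles give the log2 fold change of each tested pathway gene by role in HFD against Control and HFD+Mino against HFD, with filled circles for genes past both thresholds and bars for list medians. Cntfr at -2.12 and Ctf1 at 2.67 are the filled circles, and the bars of the kinases, STAT factors, inhibitors and adaptors lie above 0 on the left and below 0 on the right.

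By role, none of the other lists had a gene past the main thresholds, and the following examples at an FDR under 0.05 with at least 1.5-fold were chosen after their values were seen. In HFD against Control such genes were 5 of 58, beside 5.77% of all genes: Irs4 higher and Ctf1, Cntfr, Grb2 and Mcl1 lower. In HFD+Mino against HFD they were 13 of 58, 4 higher and 9 lower, beside 27.4% of all genes. Among receptor chains, Lifr, the partner of gp130 for leukemia inhibitory factor, stood at 25.0, 15.7 and 21.1 CPM in Control, 35.8, 30.8 and 34.0 in HFD and 13.4, 15.5 and 21.0 in HFD+Mino (HFD+Mino against HFD -1.01, FDR 0.0185), and Osmr, the partner for oncostatin M, differed by -1.47 (FDR 0.0322). Jak1, the main kinase of gp130, was lower by 0.91 (FDR 0.0191), with the HFD+Mino mice at 97.97, 117 and 121 CPM and the HFD mice at 191, 200 and 240. Among STAT factors Stat5b was lower by 1.79 (FDR 0.0202), from 103, 96.0 and 92.0 CPM in HFD to 20.1, 18.1 and 46.3. Its close paralog Stat5a can share reads with it, so that value is uncertain. Of 13 other inhibitors, 2 were lower, Socs6 by 1.05 (FDR 0.0262) and Grb10 by 1.12 (FDR 0.0253), and 8 did not overlap, all with HFD+Mino lower, beside the 46.7% of all tested genes that did not overlap. Of 8 adaptors, Sh2b1, which enhances JAK2 activity, was lower by 0.96 (FDR 0.0333), Gab1 and Irs1 were lower by 1.35 and 0.72 (FDR 0.0301 and 0.0488), and Grb2, which links receptors to RAS, was higher by 0.71 (FDR 0.0299). The median of the 58 genes was 0.02 in HFD against Control and -0.46 in HFD+Mino against HFD, where all tested genes had medians of 0.00 and 0.01.

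Of 16 STAT3 target genes, 15 were tested and none passed the thresholds in any comparison. Of all tested genes, 1.74% passed in HFD against Control, 4.15% in HFD+Mino against HFD, 0.0% in HFD+Mino against Control and 2.17% in the 3-way test. The median of the 15 targets was -0.30 in HFD against Control and 0.11 in HFD+Mino against HFD. At an FDR under 0.05 with at least 1.5-fold, 1 of the 15 differed in each comparison, the survival gene Mcl1 both times. The shares of all tested genes were 5.77% and 27.4%. Mcl1 was 1.62 lower in HFD than in Control (FDR 0.0131) and 1.03 higher in HFD+Mino than in HFD (FDR 0.0319). Mcl1 stood at 29.9, 33.5 and 29.5 CPM in Control, 9.74, 8.96 and 11.6 in HFD and 13.7, 16.8 and 31.6 in HFD+Mino. Stat3 itself was highest in the HFD mice, in which Mcl1 was lowest. Among the 15 tested targets HFD lay below all 6 other mice for Mcl1 alone. It lay above all 6 for 2 targets, Bcl2l1 and Tnfrsf1a. Of all tested genes, 23.0% had HFD beyond all 6. Lcn2, a target known from inflamed brain, was left out by the filter with 0 to 5 reads in each Control and HFD library and 176, 18 and 6 in HFD+Mino.

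Ligand genes were close to the limit of detection. Leptin itself, made in fat, gave 7, 5 and 4 reads in Control, 25, 0 and 0 in HFD and 0, 2 and 2 in HFD+Mino. Cntf, Clcf1 and Il27 stayed under 10 reads in every library and Osm at 16 or fewer, and none of these 5 ligand genes was tested. Il6 had 0 to 28 reads a library. Leprot, which shares a locus with Lepr but no exonic base with it in the annotation used, encodes a regulator of leptin receptor trafficking. Leprot stood at 78.7, 56.6 and 40.6 CPM in Control, 35.7, 37.6 and 40.3 in HFD and 52.4, 71.1 and 46.0 in HFD+Mino. HFD lay below all 6 other mice (-0.63 against Control, FDR 0.212, and HFD+Mino 0.58 above HFD, FDR 0.127), whereas its paralog Leprotl1 overlapped in all comparisons, at 87.8 to 124 CPM.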

How the data were processed

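PVN RNA was sequenced in 9 mice, 3 independent mice a group. The deposited values are raw read counts per gene. Per the submitters' processing notes the authors aligned reads with HISAT2 to mm10 (GRCm38) and counted them with featureCounts. Versions, strand setting and treatment of multi-mapping reads are not given in the sources used here. The cDNA came from an oligo-primed low-input kit (SMARTer v4).

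Counts were tested in edgeR 4.0.16 (R 4.3.3) with TMM scaling, filterByExpr and 1 quasi-likelihood model of 3 group means over all 9 samples, with Benjamini-Hochberg adjustment over all 17344 tested genes. Genes were called at an FDR under 0.01 with at least 1.5-fold change (3-way test: of 1 group from the mean of the 3). Levels are TMM-scaled CPM. Per-length levels use the union of exons in GENCODE M21 (GRCm38), matched by Entrez identifier. The pairwise comparisons share libraries. The members, the lists and the tests were chosen with earlier results of these data known. Named genes were the 10 members, called pathway genes, ligands under 10 reads in every sample, Leprot, Leprotl1 and the 3 genes most correlated with Lepr and with Stat3; further examples are marked as such. The fits were run on simulated counts to check the direction of changes and the number of false calls. That check does not show that true changes of the sizes seen here would pass the thresholds. A motif search in the proteins was not run.

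Alternatives were DESeq2 1.42.0, RLE factors, no filter, trends on exon length or GC removed (15626 tested genes have a length), other thresholds, each sample left out, and the replicate number as a block. No label says that a number marks a shared litter, batch or day. Deviations of same-numbered Control and HFD+Mino samples correlated at 0.135, 0.163 and 0.292, all above 0.1, so these were taken as paired, from the counts alone. Between these groups, samples of different number reached 0.026 at most. Elsewhere, samples of different number also passed 0.1: Control replicate 2 with HFD replicate 1 (0.167) and Control replicate 1 with HFD replicate 2 (0.104). So did HFD replicate 1 with HFD+Mino replicate 2 (0.114) and HFD replicate 2 with HFD+Mino replicate 1 (0.106). The block was thus chosen from the same counts it was then used on. HFD samples of the same number did not pair with either group (-0.152 to -0.006). The descriptions and column names number the HFD samples differently, so that HFD replicate 1 carries the number 3. By that number it is the 1 HFD sample with a match in the other groups, at 0.038 with Control replicate 3 and 0.017 with HFD+Mino replicate 3, so HFD was not paired either way.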

Additional observations from a re-analysis of the deposited data

How the results depend on the processing

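Over the members' and called pathway genes' log2 differences, 539 of 576 alternative values kept their side of the threshold. No called value changed sign, and 16 values that were not called did (of Lepr, Il6ra, Socs1, Ptpn1 and Ptpn2). In HFD+Mino against HFD, where 1 member passed, the count, with the share of all genes that passed, was 3 in DESeq2 (23.0%), 2 with no filter (7.61%), 2 with the replicate block in all 9 samples (7.89%), 3 with the replicate block in Control and HFD+Mino (25.6%), 0 with the length trend removed (1.68%), 2 with the GC trend removed (8.15%), 3 with length trend and block together (15.4%), 3 at an FDR under 0.05 (27.4%), and 0 to 4 with 1 sample left out (0.162% to 21.4%; 4 without HFD+Mino replicate 3, where 21.4% passed, 2 without Control replicate 1 or 3, and 0 without Control replicate 2, HFD+Mino replicate 1 or 2, or any HFD replicate). In the 3-way test, with 0 members, it was 2, 1, 1, 2 and 2 (DESeq2, no filter, both blocks, length trend with block; 18.7%, 6.11%, 2.89%, 18.5% and 10.3% of all genes), 3 at an FDR under 0.05 (17.7%), and 0 to 3 with 1 sample left out (3 without HFD+Mino replicate 3, where 18.5% passed, 1 without Control replicate 3). In HFD against Control it rose from 0 to 1 with the replicate block in Control and HFD+Mino (6.22%), and in HFD+Mino against Control it stayed at 0 in every alternative run.

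For the 58 pathway genes, the 3-way count rose from 0 to 10 in DESeq2 and 8 with that block, beside 18.7% and 18.5% of all genes, and was 0 to 8 with 1 sample left out. In HFD against Control it went from 1 to 6, 6 and 0 (DESeq2, block, length trend), beside 6.91%, 6.22% and 1.86%, and 0 to 3 with 1 sample left out. In HFD+Mino against HFD it went from 1 to 11, 12 and 0, beside 23.0%, 25.6% and 1.68%, and 0 to 7, and in HFD+Mino against Control it was 0 to 2 with 1 sample left out. The highest counts came without HFD+Mino replicate 3 (8, 3, 7 and 2, beside 18.5%, 3.08%, 21.4% and 6.28%). Except for DESeq2 and RLE factors, the alternatives for the pathway genes were chosen after seeing the data. The causes of these changes were not tested.

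Limits: with 3 mice a group, intervals of the rare genes (Lepr, Il6ra and Socs3) reach several-fold. Control replicate 1 carries few PVN transcripts and enters each comparison with Control. The tables give transcripts, not protein or phosphorylation.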

Other observations

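Over the 9 samples, log2 CPM of Il6st and Stat3 had a Pearson correlation of 0.96, Socs2 had correlations of -0.82 with Il6st and -0.85 with Stat3, and Jak2 had -0.07 and -0.16. Lepr had 0.77 with Il6st and 0.68 with Stat3, whereas Ptpn2 had values between -0.23 and 0.36 with every other member. The tested genes most like Lepr were Zfp563 (0.978), Dnm1l (0.967) and Gdap1 (0.967), and those most like Stat3 were Ranbp10 (0.993), Nfe2l1 (0.993) and Gcn1l1 (0.991). These are descriptions of 9 libraries that share group differences, library composition and the trend on exon length, and the 3 genes named for each were picked as the highest among 17344 tested genes.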
